A study of Homo sapiens with 12 samples.

Results

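LC-2/ad is a human lung adenocarcinoma line that carries a fusion of the genes CCDC6 and RET, and selpercatinib is a drug that blocks the kinase of the receptor RET. The data described here compare 3 libraries of LC-2/ad cells kept for 48 h in 100 nM selpercatinib with 3 libraries of the parent cells. The treatment of the parent cells is labelled as none, and the labels do not say whether they were given the solvent of the drug. All members come from this established line, grown with serum, and nothing else was varied. The members are the 14118 genes with a mean of at least 1 TPM, the share of a library's transcripts after correction for their length, over these 6 libraries, of 37247 gene identifiers in the table. The series also holds 6 libraries of the thyroid cancer line TPC-1, parent and treated in the same way. Nothing in the labels tells if replicate libraries were separate cultures, and p-values therefore reflect the spread among libraries alone, which could be technical. Read depth is unknown, because TPM do not retain it.

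RET is a receptor that, once its kinase is active, recruits adaptors and signals through RAS, RAF, MEK and ERK and through PI3K and AKT. A fusion partner such as CCDC6 lets the kinase domain pair up without ligand. ERK activity is known to switch on its own inhibitors, the DUSP phosphatases and the Sprouty proteins, together with ETS and AP-1 transcription factors and the G1 cyclin that opens the cell cycle.

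The libraries carried the markers of the labelled cell type. NKX2-1, the transcription factor that marks lung adenocarcinoma, was at 110, 114 and 105 TPM in parent cells and at 141, 141 and 140 TPM after treatment. NAPSA, an aspartic protease of alveolar cells, had a mean of 33.0 TPM in parent cells and 34.9 TPM after treatment. KRT7, KRT8, KRT18 and KRT19 were among the most abundant transcripts, with KRT18 the lowest of these after treatment at 939 TPM. The surfactant gene SFTPC was listed at 0 in all 6 libraries, and SFTPB averaged 0.619 TPM in parent cells and 0.221 TPM after treatment. Of 24 markers of blood, endothelial, fibroblast, liver, thyroid and pigment cells, 6 reached a mean of 1 TPM. PAX8 (14.8 against 21.9 TPM), CDH5 (2.07 against 3.63 TPM) and LUM (0.495 against 2.12 TPM) rose among them. With mitochondrial genes removed 5 of the 6 rose, and at a minimum mean of 5 TPM only 1 did. The summed level of that list went from 57.9 TPM before treatment to 75.1 TPM after it, and HBB was listed at 0 throughout.

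Most genes passed the test, most of them with small changes. Differences are given as log2 fold changes, treated minus parent, of log2(TPM + 1), each with the SE from limma, and the pseudocount understates changes of low genes. A gene is said to rise or fall where limma gave an adjusted p under 0.05 over all 14118 genes. By that rule 7770 genes changed (55.0%), 4319 upward (30.6%) and 3451 downward (24.4%). Under median-of-ratios scaling 3757 rose and 3980 fell, and with mitochondrial genes removed 5216 rose and 2833 fell, so the prevailing direction depends on the scaling. A called change of at least 1 on the log2 scale was seen for 648 genes that rose (4.59%) and 467 that fell (3.31%). The 3 treated values lay wholly outside the 3 parent values for 8870 genes (62.8%). Of the calls, 1920 rises and 1930 falls were of under 0.5. Each count below has to be read against these shares, since a list with 55.0% of its members called is like the whole table.

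The genes that fell and rose were summed to show how large a part of the transcript pool they held. The direction of each sum follows from how the genes were picked. The genes that fell held 48.4% of all TPM in parent cells and 36.5% after treatment, while the genes that rose held 27.2% and 39.0%. The genes that fell were also the more abundant ones, with a median of 43.8 TPM in their higher group against 20.4 TPM for those that rose. Transcripts of mitochondrial DNA went from 9.77% ± 0.05 (SD, n = 3) of the TPM in parent cells to 14.56% ± 0.49 after treatment. Libraries of 1 group correlated at 0.9838 to 0.9888 (Pearson, log2 values across genes) and libraries of different groups at 0.9495 to 0.9526. No LC-2/ad library stood apart from its group.

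**Figure D1:**
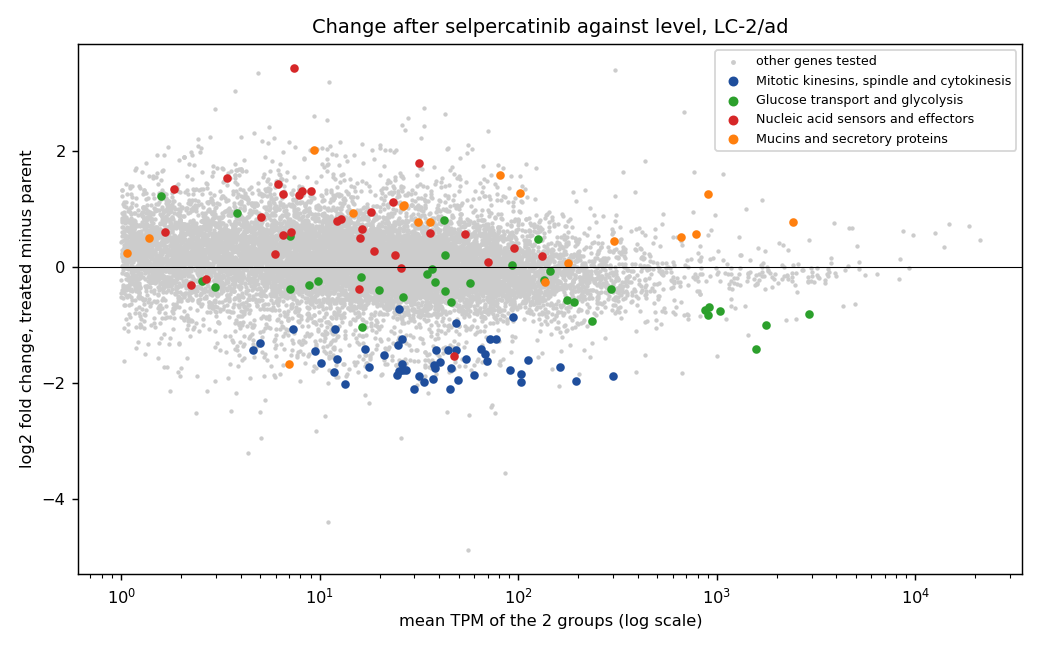
Log2 fold change (treated minus parent) of each of the 14118 genes against its mean TPM on a log scale, with members of 4 gene lists in colour. Mitotic genes lie between about 5 and 300 TPM and are all below 0, the most abundant glycolytic genes lie below 0 as well, and mucin and nucleic acid sensor genes lie mostly above 0.

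Inhibitors of the ERK pathway that ERK itself induces fell, but not all of them. DUSP6, the cytoplasmic phosphatase of ERK, was at 162, 160 and 156 TPM in parent cells and at 14.6, 13.2 and 10.9 TPM in treated cells, so that even the highest treated value was far below the lowest parent value. Its log2 fold change was -3.54 ± 0.09 (limma adjusted p = 2.32e-07). The nuclear phosphatases DUSP4 (14.8 to 3.84 TPM, -1.71 ± 0.08) and DUSP5 (23.0 to 6.79 TPM, -1.62 ± 0.08) fell less. DUSP1, a nuclear phosphatase that also acts on the stress kinases p38 and JNK, moved the other way. It was at 15.9, 15.5 and 16.4 TPM in parent cells and at 38.2, 37.7 and 41.7 TPM in treated cells, a change of 1.25 ± 0.06 with no overlap (limma adjusted p = 3.06e-06). Of the 8 DUSP genes tested, 5 fell and 3 rose, and the summed TPM of the list went from 274 to 129. All 5 Sprouty and SPRED genes tested fell, with a median of -0.71 against 0.07 for all genes. SPRY4, which blocks RAS activation, fell from 16.2 to 5.22 TPM (-1.47 ± 0.10), while SPRY2 fell by only 0.42 ± 0.08.

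The receptor and the kinases below it changed little. RET was at 15.7, 15.9 and 16.5 TPM in parent and at 22.2, 21.0 and 21.1 TPM in treated libraries, a rise of 0.40 ± 0.06 with no overlap. The gene-level value cannot separate RET sequence within the fusion transcript from that of the native gene. CCDC6, the fusion partner, had means of 26.2 and 26.3 TPM (0.01 ± 0.06, limma adjusted p = 0.939). Of 22 genes of the receptor and its adaptors and kinases, 5 rose and 4 fell, below the share of all genes, and 8 rose once mitochondrial genes were removed. MAP2K1, which encodes MEK1, fell from 47.1 to 32.8 TPM (-0.51 ± 0.07), and PTPN11, which encodes the phosphatase SHP2, from 84.9 to 63.5 TPM (-0.41 ± 0.06). The docking proteins DOK4 (2.65 to 8.12 TPM, 1.32 ± 0.10), IRS1 (0.44 ± 0.11) and GAB1 (0.41 ± 0.09) rose. EGFR was at 31.3 TPM before and 28.1 TPM after treatment (-0.15 ± 0.06, limma adjusted p = 0.0747), but passed under median-of-ratios scaling (-0.21, limma adjusted p = 0.0192) and without selpercatinib replicate 2 (-0.20, limma adjusted p = 0.0307). MET, whose product binds HGF, went from 383 to 164 TPM (-1.22 ± 0.05).

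In the ERBB family the ligand genes AREG and EREG fell, and the receptor genes ERBB2 and ERBB3 rose. AREG, which encodes amphiregulin, was at 121, 126 and 125 TPM in parent cells and at 22.8, 22.7 and 23.7 TPM after treatment (-2.38 ± 0.05). EREG, which encodes epiregulin, went from 71.6, 77.9 and 75.0 TPM to 12.7, 13.5 and 11.6 TPM (-2.48 ± 0.07). Both are ligands of EGFR, and for both the groups were far apart. The EGFR ligands TGFA (20.8 against 24.8 TPM, 0.24 ± 0.15) and BTC (8.72 against 6.78 TPM, -0.33 ± 0.13) did not pass, nor did EGFR itself as given above. BTC passed as a fall under median-of-ratios scaling (-0.38, limma adjusted p = 0.045) and without selpercatinib replicate 1 (-0.45, limma adjusted p = 0.0222). The receptors ERBB2 (186 to 346 TPM, 0.89 ± 0.04) and ERBB3 (65.0 to 109 TPM, 0.75 ± 0.09) rose, and ERRFI1, a feedback inhibitor of EGFR, fell from 185 to 93.2 TPM (-0.98 ± 0.04). The 14 genes tested in this list had 5 rises and 3 falls, near the shares of all genes, or 5 falls under median-of-ratios scaling.

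Among ETS factors the largest falls were in the PEA3 subfamily, whose genes are known ERK targets. ETV4 was at 44.0, 46.5 and 47.4 TPM in parent libraries and at 5.68, 5.58 and 4.20 TPM in treated ones (-2.94 ± 0.11). ETV5 fell from 19.0 to 2.40 TPM (-2.55 ± 0.09) and ETV1 from 3.60 to 0.392 TPM (-1.73 ± 0.22). SPDEF, an ETS factor of goblet cells, fell from 11.2 to 2.84 TPM (-1.67 ± 0.09). The rises were smaller, as with ELF3 (575 to 755 TPM, 0.39 ± 0.03) and ELF1 (0.51 ± 0.06). ELK1 (-0.54 ± 0.07) and ERF (-0.41 ± 0.09) fell. In all, 8 of 18 ETS genes fell and 5 rose.

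The AP-1 and immediate early genes divided by family member. EGR1 fell from 57.8 to 21.1 TPM (-1.41 ± 0.07), FOSL1 from 55.5 to 23.4 TPM (-1.21 ± 0.06) and FOS from 7.94 to 3.34 TPM (-1.05 ± 0.14). JUN, on the contrary, was at 35.6, 34.4 and 34.1 TPM in parent cells and at 55.0, 52.8 and 55.2 TPM in treated cells (0.63 ± 0.05), again with no overlap. FOSL2 (61.8 to 89.0 TPM, 0.52 ± 0.04) and BATF (0.47 ± 0.06) rose too. Of 14 genes 8 fell and 4 rose.

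In the MYC network 6 of 12 genes rose and 3 fell, with the largest changes in the MYC antagonists MXD4 and MXD3. MYC fell from 182 to 116 TPM (-0.65 ± 0.04). MXD4, which encodes a partner of MAX that represses at MYC sites, was at 16.8, 15.4 and 17.1 TPM in parent libraries and at 69.9, 71.0 and 71.5 TPM in treated libraries, a rise of 2.04 ± 0.06 (limma adjusted p = 2.98e-07). MXD3, its close relative, fell from 57.0, 57.4 and 50.8 TPM to 16.1, 15.7 and 19.7 TPM (-1.63 ± 0.09). The groups did not overlap for either gene. The other antagonists changed less, with MXI1 at 0.39 ± 0.10, while MXD1 (0.33 ± 0.15) and MNT (0.18 ± 0.10) did not pass. MXD1 passed as a rise with mitochondrial genes removed (0.40, limma adjusted p = 0.0497), with no variance trend (0.33, limma adjusted p = 0.0449) and without selpercatinib replicate 3 (0.44, limma adjusted p = 0.0382). The summed TPM of the 12 genes was nearly level, at 502 and 495.

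**Figure D2:**
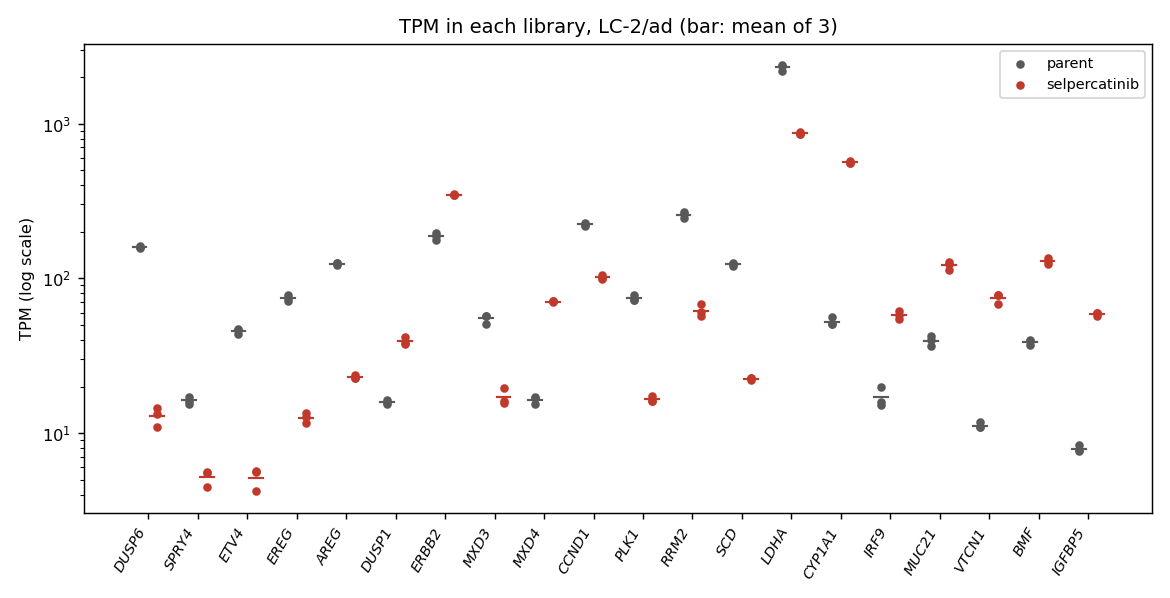
TPM of 20 genes in each of the 3 parent (grey) and 3 selpercatinib (red) libraries on a log scale, with bars at the group means. The treated points of DUSP6, AREG, PLK1 and SCD lie below all parent points, and those of DUSP1, MXD4, CYP1A1 and VTCN1 above them.

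Most genes of the cell cycle fell at every stage, and the mitotic list had the lowest median. CCND1, the cyclin D1 gene, was at 221, 229 and 218 TPM in parent and 101, 99.2 and 105 TPM in treated libraries (-1.12 ± 0.04). Of 28 genes of G1 control 21 fell and 4 rose, among them E2F1 (38.1 to 11.9 TPM, -1.60 ± 0.09), the late cell cycle factors MYBL2 (-1.63 ± 0.07) and FOXM1 (-1.59 ± 0.07), and CCNE2 (-1.41 ± 0.07). RB1, the tumour suppressor that restrains E2F, did not pass (12.7 against 12.2 TPM, -0.06 ± 0.09, limma adjusted p = 0.63). In bulk RNA, fewer cycling cells and less RNA per cell cannot be told apart.

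The genes that license origins and drive the replication fork fell in 45 of 48 cases, and none rose. Their median was -1.24, and their summed TPM dropped from 2690 to 1214. CDC6, which loads the MCM helicase, was at 76.2, 79.9 and 75.1 TPM in parent cells and at 23.3, 22.1 and 24.1 TPM after treatment (-1.69 ± 0.05). GINS2, a subunit of the active helicase (-1.68 ± 0.11), RFC3, a subunit of the clamp loader (-1.67 ± 0.07), and FEN1, the flap nuclease (-1.69 ± 0.05), fell to a like degree. The members that did not pass were ORC2 (0.18 ± 0.08), ORC4 (-0.21 ± 0.10) and RFC1 (-0.05 ± 0.08), while ORC1, another subunit of the origin recognition complex, fell from 13.5 to 3.99 TPM (-1.54 ± 0.08). ORC2 passed as a rise once mitochondrial genes were removed (0.25, limma adjusted p = 0.0358), and ORC4 as a fall without selpercatinib replicate 1 (-0.31, limma adjusted p = 0.0164).

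All 49 genes of mitotic kinesins, spindle and cytokinesis fell, 46 of them by at least 1, with a median of -1.65. PLK1, the kinase that drives entry into mitosis, was at 77.6, 72.7 and 72.9 TPM in parent libraries and at 16.1, 17.5 and 16.1 TPM in treated libraries (-2.10 ± 0.06, limma adjusted p = 2.98e-07). TOP2A, which untangles sister chromatids, went from 166 to 41.1 TPM (-1.98 ± 0.05), and the securin gene PTTG1 from 311 to 79.5 TPM (-1.96 ± 0.05). Kinetochore and checkpoint genes fell in 39 of 44 cases, with a median of -1.53. CENPE, a kinesin of the kinetochore, fell by 1.99 ± 0.09 and the checkpoint kinase gene BUB1 by 1.87 ± 0.07. NSL1 and PMF1, subunits of the constitutive MIS12 complex, did not pass, at -0.11 ± 0.08 and -0.05 ± 0.05.

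Promoters of these genes were examined for short motifs, because the replication and mitosis lists are known to depend on different factors. The sequences below show members named above, from 250 bases before to 50 bases after the annotated start, 5′ to 3′ on the strand of the gene. They are RefSeq sequences of GRCh38.p14, and capitals mark matches on either strand to the CHR element (TTTGAA), the E2F site (TTCCCGC) or the CCAAT box (CCAAT). PLK1 lies on the plus strand at chr16:23678639-23678938, TOP2A on the minus strand at chr17:40417847-40418146, GINS2 on the minus strand at chr16:85688905-85689204 and RFC3 on the plus strand at chr13:33817899-33818198.
PLK1: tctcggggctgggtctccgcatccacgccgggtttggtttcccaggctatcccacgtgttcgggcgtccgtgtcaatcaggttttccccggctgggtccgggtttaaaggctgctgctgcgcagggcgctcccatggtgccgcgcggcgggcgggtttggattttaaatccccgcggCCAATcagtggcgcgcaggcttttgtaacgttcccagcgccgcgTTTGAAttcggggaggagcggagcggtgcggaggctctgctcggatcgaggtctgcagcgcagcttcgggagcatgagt
TOP2A: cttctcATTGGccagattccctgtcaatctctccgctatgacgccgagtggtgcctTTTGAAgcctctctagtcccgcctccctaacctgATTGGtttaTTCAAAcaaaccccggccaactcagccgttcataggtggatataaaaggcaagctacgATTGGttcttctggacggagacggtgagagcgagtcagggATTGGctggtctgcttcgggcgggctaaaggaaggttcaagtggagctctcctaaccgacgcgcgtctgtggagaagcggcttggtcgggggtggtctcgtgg
GINS2: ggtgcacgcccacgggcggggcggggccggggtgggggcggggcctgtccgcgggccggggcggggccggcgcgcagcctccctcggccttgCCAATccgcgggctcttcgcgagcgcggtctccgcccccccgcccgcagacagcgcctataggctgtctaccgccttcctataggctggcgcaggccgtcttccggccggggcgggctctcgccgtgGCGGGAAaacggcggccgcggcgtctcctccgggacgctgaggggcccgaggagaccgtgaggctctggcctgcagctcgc
RFC3: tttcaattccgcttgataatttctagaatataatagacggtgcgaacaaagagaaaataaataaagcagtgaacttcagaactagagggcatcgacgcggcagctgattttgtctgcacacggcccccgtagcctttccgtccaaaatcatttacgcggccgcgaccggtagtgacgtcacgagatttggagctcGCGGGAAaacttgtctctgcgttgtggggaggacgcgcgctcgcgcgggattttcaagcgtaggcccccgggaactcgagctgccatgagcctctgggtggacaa
The PLK1 promoter had a CHR element 29 bases and a CCAAT box 73 bases before the start. TOP2A had 6 matches, a CHR element on each strand and 4 CCAAT boxes. GINS2 and RFC3 had an E2F site, 31 and 55 bases before the start, and no CHR element. An E2F site was present in 16 of the 42 replication promoters matched, so these examples do not stand for the list.

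Motif shares were counted over the coding genes that had a RefSeq promoter, 80.6% of 12664. A CHR element was present in 71.4% of the promoters of the mitotic list, 2.38% of those of the replication list, 30.7% of those of genes that fell by at least 1, and 9.74% of all coding genes tested. The E2F site showed the opposite ranking, in 38.1% of replication promoters, 9.52% of mitotic promoters and 10.4% of all. CCAAT boxes were frequent in both, at 76.2% and 57.1% against 36.8%. In the whole promoter table of 27305 entries, CHR elements occurred in 15.4%, E2F sites in 6.56% and CCAAT boxes in 35.7%. On the strand of the gene alone, the E2F site was found in 9.52% of replication promoters, 7.14% of mitotic promoters and 5.58% of all, and the CHR element in 0.00%, 52.4% and 5.37%. These shares have no test and describe letters in a window, not bound sites. The E-box (CACGTG), the XRE of the AHR (TNGCGTG) and the TEAD site (GGAATG) were found in 16.7%, 9.52% and 14.3% of replication promoters, 7.14%, 9.52% and 7.14% of mitotic promoters, and 10.1%, 7.27% and 10.9% of all. No share is given for genes that rose, as only 79.2% had a promoter, nor for the kinetochore list, at 79.5%.

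**Figure D3:**
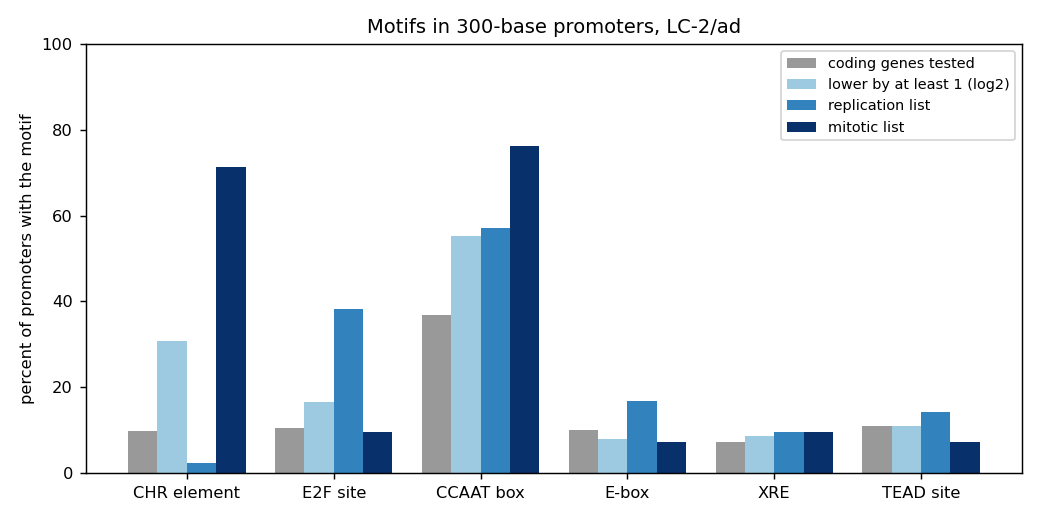
Percent of 300-base promoters that hold each of 6 motifs on either strand, for coding genes tested, genes that fell by at least 1 on the log2 scale, the replication list and the mitotic list. The CHR element stands at 71.4% in the mitotic list and 2.38% in the replication list, and the E2F site at 9.52% and 38.1%.

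Most genes that supply, repair and package DNA fell. Of 34 nucleotide synthesis genes 30 fell and 2 rose, or 1 rose without a filter on low values or without parent replicate 3, selpercatinib replicate 2 or selpercatinib replicate 3. RRM2, the regulated subunit of ribonucleotide reductase, was at 267, 247 and 259 TPM in parent and at 57.4, 60.6 and 67.8 TPM in treated libraries (-2.04 ± 0.06), and the thymidine kinase gene TK1 went from 318 to 88.5 TPM (-1.83 ± 0.04). Homologous recombination and Fanconi genes fell in 30 of 37 cases, for example BRCA1 (50.3 to 17.7 TPM, -1.46 ± 0.08) and FANCA (-1.67 ± 0.11), while MUS81 rose by 0.34 ± 0.08. Of 38 chromatin genes 32 fell and 3 rose. The architectural protein gene HMGA1 fell from 1494, 1510 and 1460 TPM to 509, 517 and 517 TPM (-1.53 ± 0.03), and UHRF1, which guides maintenance methylation, by 1.60 ± 0.06. The 3 that rose were DNMT3A (22.8 to 32.9 TPM), TET2 (4.45 to 6.56 TPM) and EZH1 (13.8 to 18.9 TPM).

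Several fallen genes had a close relative that rose. These pairs were picked after their values were seen, carry no test of the pair and are given as a description. DNMT1 fell (-0.58 ± 0.13) and DNMT3A rose (0.52 ± 0.07), EZH2 fell (-1.16 ± 0.09) and EZH1 rose (0.43 ± 0.11), RBL1 fell (-0.56 ± 0.14) and RBL2, which encodes the p130 pocket protein of resting cells, rose (0.50 ± 0.06). CDK4 fell from 198 to 112 TPM (-0.83 ± 0.05), and CDK6, at a lower level, rose from 17.9 to 22.5 TPM (0.31 ± 0.06). Among tubulins TUBA1B fell from 1978 to 882 TPM (-1.16 ± 0.03) and TUBB4B from 666 to 322 TPM (-1.05 ± 0.03). TUBA1A was at 8.10, 8.48 and 7.49 TPM in parent libraries and at 46.8, 47.5 and 42.7 TPM in treated ones (2.37 ± 0.07), without overlap. Alpha tubulin coding sequences are nearly identical, so the split of reads between them is uncertain. Of 18 tubulin genes and partners tested 9 fell and 6 rose.

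**Figure D4:**
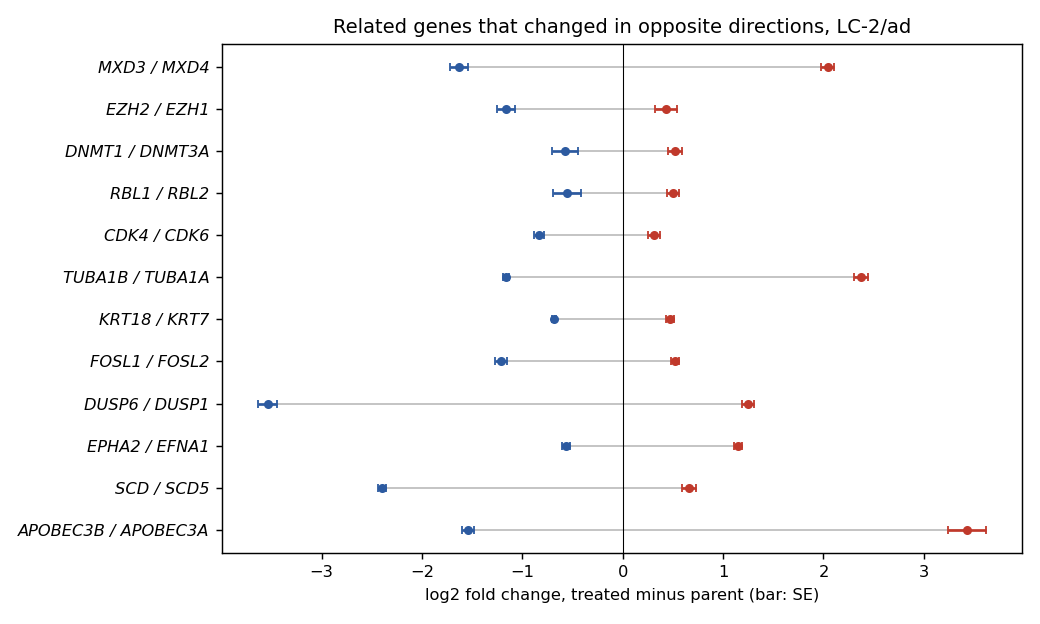
Log2 fold change with its SE for 12 pairs of related genes, the member that fell in blue and the member that rose in red. Pairs differ most for APOBEC3B and APOBEC3A, DUSP6 and DUSP1, and MXD3 and MXD4, and least for RBL1 and RBL2.

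Biosynthesis fell broadly, with different sizes by pathway. In the sterol and fatty acid list 27 of 44 genes fell and 10 rose. SCD, the desaturase that makes oleate, was at 120, 124 and 125 TPM in parent and at 22.2, 22.8 and 22.6 TPM in treated libraries (-2.40 ± 0.04), while SCD5, another desaturase gene, rose from 13.7 to 22.3 TPM. The other fatty acid desaturases FADS2 (-1.86 ± 0.09) and FADS1 (-1.16 ± 0.07) and the synthase FASN (259 to 128 TPM, -1.02 ± 0.11) fell. The sterol enzyme DHCR7 fell too (-0.81 ± 0.05). It was named after its values were seen, so the sterol and fatty acid branches are not compared. SREBF1, which encodes the regulator of the fatty acid branch, fell from 50.4 to 27.8 TPM (-0.84 ± 0.06), and SREBF2 did not pass (52.2 against 50.2 TPM, limma adjusted p = 0.347).

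Of 35 genes of glucose transport and glycolysis 21 fell and 4 rose (2 at a minimum mean of 5 TPM), and the summed TPM dropped from 15097 to 8607. LDHA, which turns pyruvate into lactate, was at 2174, 2358 and 2377 TPM in parent and at 856, 855 and 879 TPM in treated cells (-1.41 ± 0.04). GAPDH, often taken as a constant reference, fell from 3716 to 2127 TPM (-0.80 ± 0.03), and ENO1 from 2363 to 1189 TPM (-0.99 ± 0.02). PDK2 (30.5 to 54.3 TPM, 0.82 ± 0.08) and PDK4 (0.548 to 2.64 TPM, 1.23 ± 0.15), kinases that inhibit pyruvate dehydrogenase, rose. The glucose transporter SLC2A1 did not pass (147 against 141 TPM, limma adjusted p = 0.37).

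Falls with smaller medians were found in the machinery of protein turnover and mitochondrial translation. Mitochondrial ribosomal protein genes fell in 62 of 75 cases with a median of only -0.33, MRPL12 being an example (278 to 165 TPM, -0.75 ± 0.03). This was opposite to the rise of transcripts encoded in mitochondrial DNA, such as MT-CO2, at 14341, 13872 and 14044 TPM in parent and 22434, 22426 and 24143 TPM in treated libraries (0.71 ± 0.03). Proteasome subunits fell in 29 of 36 cases with a median of -0.31. PSMB10, a subunit of the interferon-inducible immunoproteasome, rose from 52.1 to 85.1 TPM (0.70 ± 0.07). In the polyamine list 12 of 20 genes fell and 3 rose, with AMD1 (59.1 to 26.5 TPM, -1.13 ± 0.07) and ODC1 (115 to 60.2 TPM, -0.93 ± 0.05) as rate-limiting enzymes. ATP13A4, a transporter of the polyamine-related ATPase family, rose from 3.18, 1.72 and 2.47 TPM to 15.6, 25.1 and 16.9 TPM (2.54 ± 0.21). Amino acid transporters fell in 14 of 27 cases, with SLC7A5 at -0.93 ± 0.04 and SLC1A5 at -0.52 ± 0.04, and rose in 7, with SLC7A8 going from 2.0 to 5.02 TPM (1.02 ± 0.15). Aminoacyl-tRNA synthetases fell in 20 of 37 cases, led by FARSB at -0.86 ± 0.08, and rose in 3, which ranged from 1 under median-of-ratios scaling, or without parent replicate 1, parent replicate 2 or selpercatinib replicate 3, to 5 with mitochondrial genes removed.

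**Figure D5:**
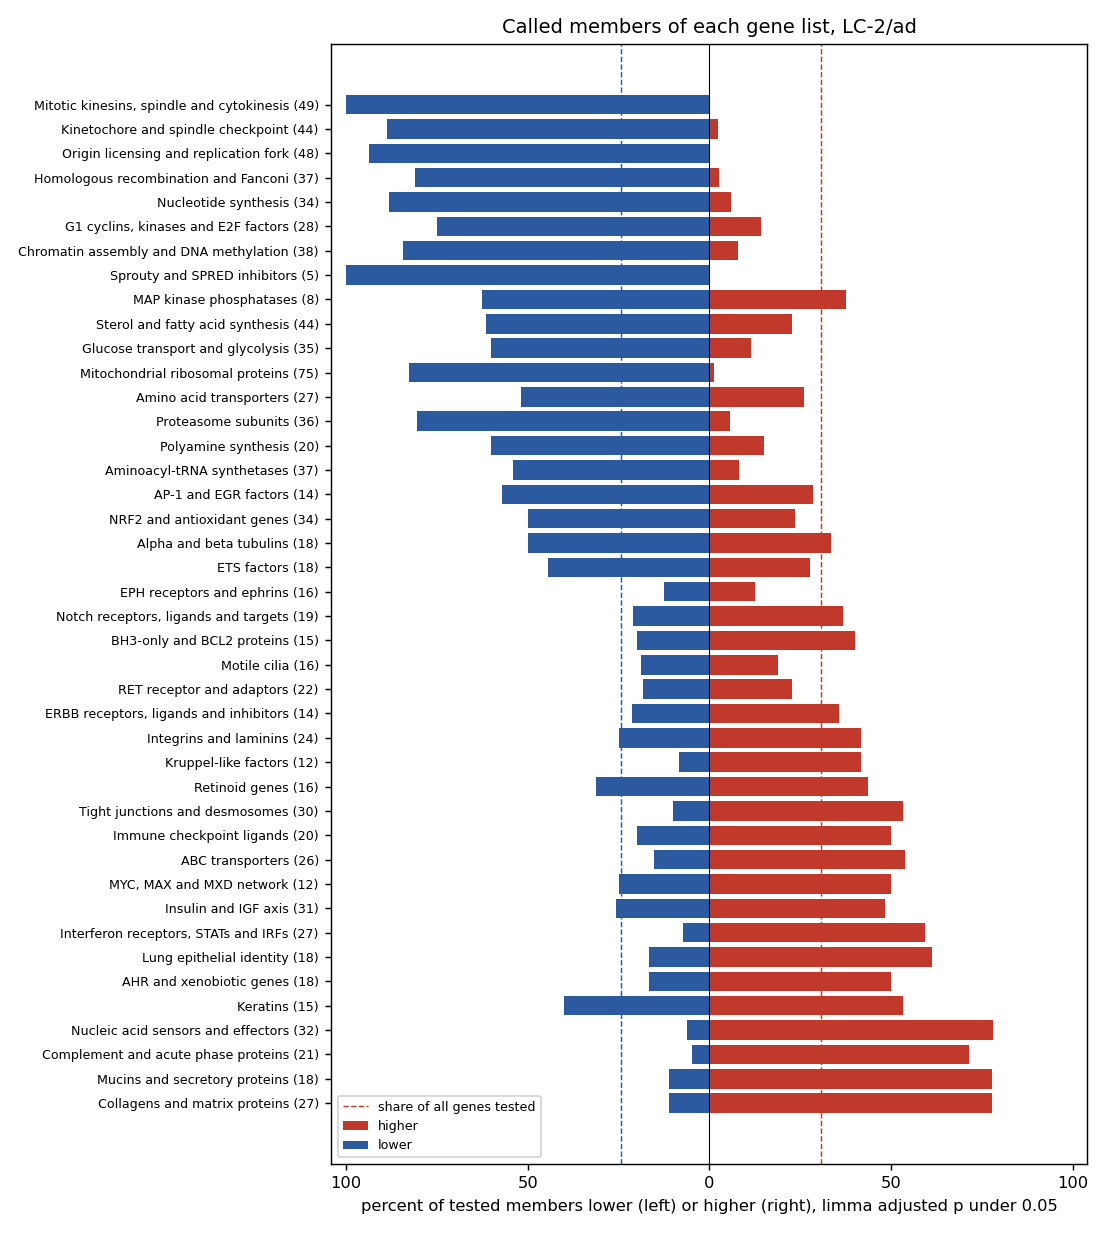
Percent of tested members of 42 gene lists (number tested in brackets) that were lower (blue, left) or higher (red, right) by limma, ordered by the median log2 fold change, with dashed lines at the shares of all genes, 24.4% and 30.6%. All 49 mitotic genes were lower, and mucin, complement, matrix and nucleic acid sensor lists had over 70% of members higher.

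Among the largest rises was that of a gene of xenobiotic metabolism. CYP1A1, the classic target of the aryl hydrocarbon receptor AHR, was at 55.9, 50.4 and 50.8 TPM in parent libraries and at 575, 552 and 557 TPM in treated libraries (3.40 ± 0.05, limma adjusted p = 3e-08). Other known AHR targets rose with it, CYP1B1 from 15 to 47.1 TPM (1.59 ± 0.06), CYP1A2 from 1.39 to 9.61 TPM (2.15 ± 0.13) and the repressor gene AHRR from 0.669 to 2.54 TPM (1.04 ± 0.26). AHR itself rose by 0.42 ± 0.07. The list was not of a single direction, with 9 of 18 members higher and 3 lower. ALDH3A1 (-1.0 ± 0.15), NQO1 (599 to 427 TPM, -0.49 ± 0.04) and SLC7A5 fell. NQO1 is also a target of NRF2, and in the list of NRF2 and antioxidant genes 17 of 34 fell and 8 rose. The glutathione enzyme gene GCLM (-0.66 ± 0.10) and TXNRD1 (-0.68 ± 0.06) fell, while catalase, CAT, rose from 36 to 66.2 TPM (0.86 ± 0.06).

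Most genes of the secretory epithelium rose. In the list of mucins and secretory proteins 14 of 18 genes rose and 2 fell, and the summed TPM went from 4273 to 7196. MUC21, a membrane mucin, was at 39.9, 36.3 and 42.3 TPM in parent and at 128, 113 and 123 TPM in treated cells (1.60 ± 0.07). The treated values were all higher. MUC15 rose from 3.09 to 15.6 TPM (2.02 ± 0.10), and PIGR, which carries IgA across the epithelium, from 58.7 to 145 TPM (1.29 ± 0.05). CEACAM5 went from 533 to 1277 TPM (1.26 ± 0.03). SPDEF, the goblet cell regulator, fell as given above, and WFDC2 was the other member that fell. Among lung identity genes 11 of 18 rose and 3 fell. HOPX, a marker of alveolar type 1 cells and of several progenitors, was at 7.88, 7.10 and 7.51 TPM in parent and at 33.9, 29.9 and 26.6 TPM in treated libraries (1.87 ± 0.10). LPCAT1, an enzyme of surfactant lipid synthesis (107 to 162 TPM, 0.58 ± 0.04), and ABCA3, the transporter of the lamellar body (1.96 to 4.83 TPM, 0.98 ± 0.13), rose, while FOXA2 (9.11 to 5.19 TPM, -0.71 ± 0.09) and the basal cell factor TP63 (3.02 to 1.12 TPM, -0.90 ± 0.19) fell. FOXJ1, the master regulator of motile cilia, fell from 9.0, 10.5 and 9.73 TPM to 0.454, 0.181 and 0.573 TPM (-2.94 ± 0.15). Of 16 genes in the motile cilia list, 3 rose and 3 fell, a lower share than the 55.0% of all genes. At a minimum mean of 5 TPM, 1 rose.

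Most innate immune genes tested rose, including some factors that transmit interferon signals. IRF9 was at 16.0, 20.0 and 15.1 TPM in parent libraries and at 58.0, 61.8 and 54.8 TPM in treated libraries (1.72 ± 0.10). STAT2, its partner in the complex ISGF3, rose from 27.7 to 67.3 TPM (1.25 ± 0.05). Of 27 interferon receptors, kinases, STATs and IRFs 16 rose and 2 fell, or 1 fell without parent replicate 3. Among nucleic acid sensors and effectors 25 of 32 rose and 2 fell, with a median of 0.61. Only 1 of these fell without a filter on low values, with mitochondrial genes removed, or without parent replicate 2, parent replicate 3 or selpercatinib replicate 1. TLR3, a receptor of double-stranded RNA, rose from 14.3 to 32.6 TPM (1.13 ± 0.08), and the restriction factor TRIM22 from 13.5 to 49.6 TPM (1.79 ± 0.11). IFIT1, an RNA-binding effector, rose from 1.02, 1.45 and 1.35 TPM to 5.25, 5.99 and 5.49 TPM (1.54 ± 0.13), so its absolute level stayed low.

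The IFIT1 promoter is shown because ISGF3 is known to act through interferon-stimulated response elements. It lies on the plus strand at chr10:89392373-89392672 in GRCh38.p14, and capitals mark matches to the core of that element, a repeat of GAAA after a gap of 2 bases, on either strand.
IFIT1: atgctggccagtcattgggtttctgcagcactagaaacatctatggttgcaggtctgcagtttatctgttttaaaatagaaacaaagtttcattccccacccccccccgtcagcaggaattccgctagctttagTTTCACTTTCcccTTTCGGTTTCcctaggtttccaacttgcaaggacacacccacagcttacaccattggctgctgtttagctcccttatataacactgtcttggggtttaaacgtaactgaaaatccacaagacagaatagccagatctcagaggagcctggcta
Both matches were on the opposite strand, 103 and 116 bases before the start. The motif was found in 3.65% of all 27305 promoters in the table.

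APOBEC3A, a cytidine deaminase, rose from 0.199, 0.570 and 0.448 TPM to 10.8, 17.4 and 14.9 TPM (3.43 ± 0.19), while its neighbour APOBEC3B fell from 67.9, 73.8 and 72.0 TPM to 23.9, 25.1 and 22.7 TPM (-1.54 ± 0.06). The genes are adjacent and similar in sequence, so the split of reads between them is uncertain. Of 21 complement and acute phase genes 15 rose and 1 fell, with CFB (14.4 to 37.3 TPM, 1.31 ± 0.08) and C3 (56.2 to 88.1 TPM, 0.64 ± 0.07) as components of the alternative pathway. In a list of immune checkpoint ligands, which holds inhibitory, costimulatory and NKG2D ligands, 10 of 20 genes were higher and 4 lower. VTCN1, the inhibitory ligand B7-H4, was at 10.9, 10.9 and 11.8 TPM in parent and at 78.2, 77.5 and 68.5 TPM in treated libraries (2.64 ± 0.07). CD274, which encodes PD-L1, did not pass (6.23 against 6.52 TPM, 0.06 ± 0.10, limma adjusted p = 0.629), and NT5E, which encodes CD73, fell from 105 to 56.5 TPM (-0.88 ± 0.04).

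Matrix genes were the list with the highest median rise, 0.81, and 21 of 27 rose while 3 fell. COL5A1, a fibrillar collagen, rose from 5.96 to 20.4 TPM (1.62 ± 0.08), COL4A1 from 6.11 to 14.9 TPM (1.16 ± 0.09) and HSPG2, the perlecan of basement membranes, from 49.9 to 95.8 TPM (0.93 ± 0.07). COL4A3 and COL4A4, which lie head to head on chromosome 2, came up together from under 1 TPM. COL4A3 was at 0.0448, 0.0450 and 0.0219 TPM in parent and at 3.76, 2.38 and 4.11 TPM in treated cells, and COL4A4 rose from 0.373 to 4.67 TPM. TNC (11.9 to 3.55 TPM, -1.51 ± 0.10) and VCAN (-1.0 ± 0.15) fell. Of the fibroblast markers, COL1A1 did not pass (31.3 against 36.2 TPM, 0.20 ± 0.09, limma adjusted p = 0.0933), although it did without selpercatinib replicate 1 (0.28, limma adjusted p = 0.0296) and with mitochondrial genes removed (0.28, limma adjusted p = 0.0319). Elsewhere in that marker set COL3A1 and PDGFRB stayed under 0.05 TPM and DCN at or under 0.433 TPM in every library. Only LUM rose among those fibroblast markers, and its part in the matrix result was not tested. At a minimum mean of 5 TPM, 13 of the matrix genes rose.

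Adhesion genes changed with less unity. Laminin chains LAMB2 (28.4 to 72.2 TPM, 1.32 ± 0.10) and LAMA5 (96.3 to 175 TPM, 0.85 ± 0.08) rose, and LAMB3 fell (-0.38 ± 0.06). Among integrins ITGB6 (15.5 to 29.2 TPM, 0.87 ± 0.07) and its partner ITGAV (0.73 ± 0.05) rose, while the collagen receptor ITGA2 (35.1 to 14.8 TPM, -1.20 ± 0.06) fell. Of 24 integrins and laminins 10 rose and 6 fell. Of 30 junction genes 16 were higher and 3 lower (6 under median-of-ratios scaling), and CLDN10, a claudin, fell from 19.6 to 4.65 TPM (-1.89 ± 0.15). The simple epithelial keratins KRT8 (1709 to 1073 TPM, -0.67 ± 0.03) and KRT18 (1517 to 939 TPM, -0.69 ± 0.02), which pair in the same filament, fell by nearly the same amount, and KRT7 rose from 2441 to 3376 TPM (0.47 ± 0.04). KRT4 rose from 21.3 to 80.9 TPM (1.88 ± 0.07), and KRT13, its usual partner, fell from 122 to 37.9 TPM (-1.66 ± 0.07). KRT17 rose from 9.88 to 57.3 TPM, but its pseudogene relative KRT16P2 fell from 28.5 to 5.44 TPM on the same chromosome, so both values are uncertain.

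Notch and ephrin genes held single members with clear changes in each direction. The Notch targets HES1 (34.6 to 13.3 TPM, -1.31 ± 0.08) and NRARP (5.91 to 1.62 TPM, -1.40 ± 0.13) and the related HES6 (-1.41 ± 0.17) fell. LFNG, the glycosyltransferase that changes the ligand choice of Notch receptors, was at 25.8, 23.4 and 25.2 TPM in parent and at 75.1, 76.7 and 75.3 TPM in treated libraries (1.57 ± 0.05). In the list 7 of 19 rose and 4 fell, near the shares of all genes, and 2 fell at a minimum mean of 5 TPM. EFNA1, a ligand of EPHA2, rose from 50.4 to 113 TPM (1.15 ± 0.04), and EPHA2 fell from 105 to 70.0 TPM (-0.57 ± 0.04). Of 16 EPH receptor and ephrin genes 2 rose and 2 fell, a lower share than the 55.0% of all genes.

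Genes of the insulin and IGF axis, which signals through PI3K and AKT, and genes of cell death included large rises in single members. IGFBP5, which binds insulin-like growth factors, was at 8.37, 7.62 and 7.77 TPM in parent and at 59.8, 60.1 and 57.1 TPM in treated libraries (2.75 ± 0.06, limma adjusted p = 2.04e-07). PIK3IP1, an inhibitor of PI3K, rose from 5.42 to 27.1 TPM (2.12 ± 0.09) and FOXO4 from 5.24 to 12.7 TPM (1.13 ± 0.12). TRIB3, a pseudokinase of the stress response, fell (-0.86 ± 0.07), as did AKT1 (241 to 174 TPM, -0.47 ± 0.05). Of 31 genes 15 rose and 8 fell, or 5 fell once mitochondrial genes were removed. BMF, a BH3-only gene that promotes apoptosis, was at 37.2, 39.9 and 39.1 TPM in parent and at 135, 129 and 124 TPM in treated cells (1.71 ± 0.05), and BBC3 rose from 7.70 to 13.8 TPM (0.76 ± 0.09). The BH3-only gene PMAIP1 fell (-0.49 ± 0.09), as did the effector BAX (-0.33 ± 0.05), and the survival gene MCL1 did not pass (118 TPM in both groups). In that list 6 of 15 rose and 3 fell, which is near the shares of all genes.

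Retinoid, ABC transporter and Kruppel-like genes moved in both directions. PLAAT4, a gene known to respond to retinoic acid and interferon, rose from 510, 537 and 547 TPM to 1638, 1660 and 1574 TPM (1.61 ± 0.04), and DHRS9, a retinol dehydrogenase, fell from 135 to 48.3 TPM (-1.46 ± 0.06). Retinoid genes as a list had 7 rises and 5 falls among 16. ABC transporters rose in 14 of 26 cases, with ABCC5 going from 11.2 to 22.3 TPM (0.93 ± 0.06), and fell in 4, with ABCC4 at -0.70 ± 0.09. Of 12 Kruppel-like factors 5 rose and 1 fell, together near the 55.0% of all genes. KLF6 went from 18 to 28.7 TPM (0.65 ± 0.10).

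Beyond the lists, the single genes with the largest changes had mixed functions. The largest falls included, beside DUSP6, those of a pair of processed pseudogenes that were listed at 0 in every treated library. SRP9P1 was at 10.0 to 28.7 TPM and RPL39P16 at 5.23 to 13.6 TPM in the parent libraries. GDF15, a stress cytokine, fell from 94.3, 97.5 and 99.1 TPM to 16.0, 16.7 and 14.7 TPM (-2.54 ± 0.06), and MMP1, an interstitial collagenase, from 9.47 to 1.16 TPM (-2.28 ± 0.12). CLIC3, a chloride channel family member, rose from 7.31 to 44.7 TPM (2.46 ± 0.07), PRUNE2 from 1.05 to 10.1 TPM (2.42 ± 0.19) and CHIA, an acidic chitinase, from 0.0408 to 5.90 TPM (2.73 ± 0.15). CYP2B7P, a transcribed pseudogene of the CYP2B family, rose from 191, 177 and 184 TPM to 1140, 1192 and 1203 TPM (2.67 ± 0.04), and CYP2T1P, in the same cluster on chromosome 19, from 7.27 to 48.3 TPM (2.58 ± 0.07). Reads of such copies can be shared with related genes, so these pseudogene values are uncertain.

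For 12 genes, chosen with earlier results of these data known, the response was set against that of TPC-1. The response of TPC-1 less that of LC-2/ad, on the log2 scale, was tested by limma over the 11996 genes with a mean of at least 1 TPM in each line, of which 4393 differed (36.6%). DUSP6 started at 12.7 ± 1.18 TPM (SD, n = 3) in TPC-1 parent cells and changed by -1.0 there against -3.54 in LC-2/ad, a difference of 2.54 ± 0.19 (limma adjusted p = 6.6e-07). MKI67, a proliferation marker, was at 90.9 ± 1.59 and 87.9 ± 6.94 TPM in TPC-1 (-0.05), but fell from 59.1 to 17.0 TPM in LC-2/ad (-1.74 ± 0.06). Of the 12 genes 10 differed between the lines, TUBB3 did not (0.04 ± 0.09, limma adjusted p = 0.771), and CYP1A1 was at 0.510 and 0.309 TPM in TPC-1, below the minimum. The lines were measured in separate tables.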

How the data were processed

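Bulk RNA-seq was deposited by the authors as tables of TPM per gene, 1 for each line. Per the submitters' processing notes, bcl2fastq 2.20.0, Salmon and the GRCh38 build were used, with no role or order given. The tables name genes by Ensembl identifier, and 34436 of 37247 were matched here to a symbol with a reference name table, and gene types were taken from a GENCODE annotation of GRCh38.

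From these TPM, log2(TPM + 1) was computed here for genes with a mean of at least 1 TPM over the 6 libraries. Treated and parent libraries were compared by a linear model per gene in limma 3.58.1 (R 4.3.3), moderated along a trend of variance on level, with Benjamini-Hochberg adjustment over all 14118 genes. The response of LC-2/ad was also set against that of TPC-1 by an interaction term. The fit was also run on simulated data in which far fewer genes changed than were called here. No conclusion is drawn from that run. TPM keep no read depth, so no counting interval can be given, and 3 libraries per group limit the precision.

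Members, lists and tests were chosen with earlier results of these data known. In each of 43 lists the text draws on up to 8 called members with the largest changes at a mean of at least 5 TPM in a group, and up to 3 members not called. It also draws on the 15 largest rises and falls, the 10 largest gains and losses of TPM per direction, markers, and genes fixed by name. ABCA3, AHRR, AKT1, BATF, C3, CDK4, CDK6, COL4A3, COL4A4, DHCR7, DNMT1, DNMT3A, ETV1, EZH1, EZH2, LAMB3, MUS81, NQO1, ORC1, PDK4, RBL1, RBL2, SCD5, SLC1A5, SREBF1, TET2, TLR3 and TP63 were named after their values were seen. Promoters were matched to RefSeq by symbol, with the first start listed for each gene. The restriction of motif shares to coding genes, and to groups with at least 80% matched, was chosen after seeing the data. Alternatives covered the pseudocount, the filter, the scaling, the variance model, a replicate block and each library left out.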

Additional observations from a re-analysis of the deposited data

Results flagged for a closer look

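The response differed between the lines for 10 of the 12 genes chosen, by the interaction term of limma. Values are TPC-1 minus LC-2/ad on the log2 scale. TUBB3 did not differ, and CYP1A1, below the minimum in TPC-1, was not tested. The 12 genes were chosen with earlier results of these data known, so their share says nothing about other genes. The difference was positive, so that the fall in LC-2/ad was the larger, for DUSP6 (2.54), RRM2 (2.00), ETV4 (1.75), MKI67 (1.69), MCM2 (1.52), SCD (1.48), LDHA (1.11) and MYC (0.59). It was negative for IFIT1 (-1.79) and ERBB2 (-0.81), which rose in LC-2/ad. In TPC-1, SCD was widely spread after treatment (35.4 ± 15.6 TPM, SD, n = 3), and ETV4 was low in parent cells (5.17 TPM). The adjusted p ranged from 1.14e-08 for RRM2 to 0.00211 for MYC, and 36.6% of all genes tested differed. Line, tissue of origin and table cannot be told apart in this comparison.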

How the results depend on the processing

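The counts of called genes stayed within 1.5 times their value under every alternative run. Genes that rose numbered between 3757 (median-of-ratios scaling) and 5216 (mitochondrial genes removed), and genes that fell between 3980 and 2833 under the same settings, as given above. With each library left out in turn, 3800 to 3976 rose and 3045 to 3250 fell. With the replicate number as a replicate block, 4095 rose and 3262 fell. Deviations of libraries of the same number showed no clear correlation (r = -0.04, 0.02 and -0.09). With 3 libraries per group, these values cannot tell whether the numbers pair the samples. No called change of the 200 genes named lost its call or direction over the 2781 comparisons that could be made. Genes under the minimum mean of 5 TPM, and mitochondrial genes once removed, had no value under those settings.

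Changes of sign were limited to values that did not pass the test. Under median-of-ratios scaling CCDC6 was at -0.05 and MCL1 at -0.06. With mitochondrial genes removed PMF1 was at 0.03, RB1 at 0.01, and RFC1, SLC2A1 and SREBF2 at 0.02, and the TUBB3 difference between the lines at -0.05. With each library left out in turn, the range was -0.03 to 0.05 for CCDC6 (-0.02 and -0.01 between), -0.02 to 0.03 for MCL1, -0.12 to 0.01 for RB1, -0.11 to 0.02 for RFC1 and -0.04 to 0.08 for the TUBB3 difference.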
